A study of Danio rerio with 6 samples.

Results

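The genes described here encode the voltage-gated and potassium ion channels of the zebrafish larva. They were chosen by name, as every gene of the deposited table whose symbol starts with kcn (potassium), with scn and a digit (sodium), or with cacna, cacnb or cacng (calcium). No expression value entered that choice. The name rule found 177 of the 32520 genes in the table, and 153 of them had a mean of at least 0.5 RPKM over the 6 libraries. RPKM divides the reads of a gene by its length in kilobases and by the size of the library. The 153 genes comprise 95 potassium, 12 sodium and 46 calcium channel genes, and 110 of them encode pore-forming subunits and 43 auxiliary subunits. The study examined mgt (maggot) larvae, which carry a chemically induced missense allele of plod3, the gene of a collagen-modifying lysyl hydroxylase. GEO's labels name the genotype plod3 KO. RNA was taken from whole larvae at 4 days post fertilization (dpf), with 60 larvae per pool, from 3 mgt pools and 3 wild-type pools of the AB strain (WT). The 3 mgt libraries carry batch label 2 and the 3 WT libraries batch label 1, so batch and genotype cannot be told apart. Ribosomal RNA was depleted with either of 2 kits, and the kit of each pool is not given in the sources used here.

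Voltage-gated sodium channels carry the upstroke of the action potential, and voltage-gated potassium channels end it. Calcium channels couple the potential to transmitter release in nerve terminals and to contraction in muscle, while inward rectifiers and leak channels of the K2P family set the resting potential. Each pore-forming subunit works with auxiliary subunits that control its traffic to the membrane and its gating, and many zebrafish channel genes exist as a pair of paralogs, named a and b.

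The 6 libraries held between 38350000 and 50270000 reads, as read from the size of the smallest RPKM steps in short genes. The plod3 transcript (ENSDARG00000076317, GRCz11 chromosome 23, 44843860 to 44879214) was present in every library. It had 23.9, 24.3 and 24.4 RPKM in mgt and 16.8, 15.3 and 14.2 RPKM in WT, and a missense allele need not lower it, so its level does not check the labels. WT replicate 1 stood apart from WT replicates 2 and 3 across the transcriptome. Over the 20435 genes tested its values lay a median of 0.28 log2 units above the mean of the other WT libraries, and the mgt mean lay a median of 0.04 above it. The markers of neurons summed to 876, 873 and 913 RPKM in mgt and to 761, 266 and 352 RPKM in WT replicates 1 to 3, over 12 genes that were all detected. The markers of photoreceptors summed to between 2142 and 2234 RPKM in mgt, and to 5188 RPKM in WT replicate 1 against 1232 and 953 RPKM in the other WT libraries. All calls of channel genes given below were also made when WT replicate 1 was left out. That fit made more calls than the main fit over all genes, 14350 against 9688, so it is not a strict check. Fits without any other library made fewer calls, as given below.

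Most channel genes lay above WT in mgt larvae. Of the 153 genes, 74 were called higher and 3 were called lower, where a call was an adjusted p below 0.05 (limma, Benjamini-Hochberg over all genes tested) and an absolute log2 fold change of at least 0.32. Among all genes tested, 31.8% were called higher and 15.6% lower. The channel genes had 48.4% called higher and 1.96% called lower. The 3 mgt values all exceeded the 3 WT values in 93 channel genes, against 41.7% of all genes, and all lay below them in 5 genes, against 21.6% of all genes. The median log2 fold change (mgt minus WT) of the 153 genes was 0.88, with a range from -0.93 to 2.02, and that of all genes tested was 0.29. Summed over the 153 genes, the level was 712, 701 and 723 RPKM in mgt and 589, 271 and 307 RPKM in WT replicates 1 to 3. The scale of the libraries moved these numbers. The median of all genes was 0.29 on the deposited scale, and 0.02 with median-of-ratios factors, 0.00 with quantile normalization and 0.49 with libraries set to the same sum. The channel median was then 0.68, 0.55 and 1.07, so that it lay above that of all genes by between 0.56 and 0.66 on each of these scales. Of all genes called, 67.0% were higher on the deposited scale, against 48.7%, 46.7% and 82.2% under those scales. In whole larvae, more cells that express a channel and more RNA per cell cannot be told apart. The number of calls rested on the libraries used. It was 129 higher and 5 lower without WT replicate 1, 35 and 2 without WT replicate 2, and 19 and 1 without WT replicate 3. It was 16 and 2 without mgt replicate 1, 18 and 0 without mgt replicate 2, and 16 and 0 without mgt replicate 3. The share called higher lay clearly above that of all genes in 2 of these 6 fits, was nearly equal in 1 and lay below it in 3. It was 84.3% of channel genes against 52.0% of all genes without WT replicate 1, 22.9% against 17.5% without WT replicate 2 and 12.4% against 16.0% without WT replicate 3. It was 10.5% against 12.1% without mgt replicate 1, 11.8% against 11.7% without mgt replicate 2 and 10.5% against 11.7% without mgt replicate 3. The median log2 fold change of the channel genes stayed between 0.69 and 1.18 in those fits, and that of all genes between 0.23 and 0.39. The calls of single genes below share this dependence on the libraries, except where a gene is said to have been called in each fit. Over all genes the calls also dropped with 5 libraries, to between 4074 and 5851 of 9688 when any library other than WT replicate 1 was left out.

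The ion classes differed in how many of their genes were called. Of the 46 calcium channel genes 25 were called higher and none lower, with a median log2 fold change of 1.13. Of the 12 sodium channel genes 7 were called higher and none lower, with a median of 0.97. Of the 95 potassium channel genes 42 were called higher and 3 lower, with a median of 0.68. Among potassium channel families with more than 1 tested gene, the ether-a-go-go channels stood at the upper end, with 5 of 6 called higher. The inward rectifiers stood at the lower end, with 4 of 24 called higher and 1 called lower. Of the 12 ether-a-go-go genes 6 fell below the limit of 0.5 RPKM. Of the 6 tested 2, kcnh1a and kcnh1b, had a WT mean below it and passed through mgt. The differences between ion classes and between families were not tested. Median gene span (end minus start) was 56.3 kb for calcium, 53.2 kb for sodium and 32.8 kb for potassium channel genes. It was 116 kb for the alpha1 calcium channels and 10.1 kb for the inward rectifiers. When the trend with gene span was subtracted, 26.1%, 33.3% and 28.4% of calcium, sodium and potassium channel genes were called higher. In that fit 20.4% of all genes were called higher, and the ion medians were 0.58, 0.62 and 0.26. Pore-forming subunits had 55 of 110 genes called higher and 3 lower, and auxiliary subunits 19 of 43 higher and 0 lower, with medians of 0.86 and 0.91.

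**Figure D1:**
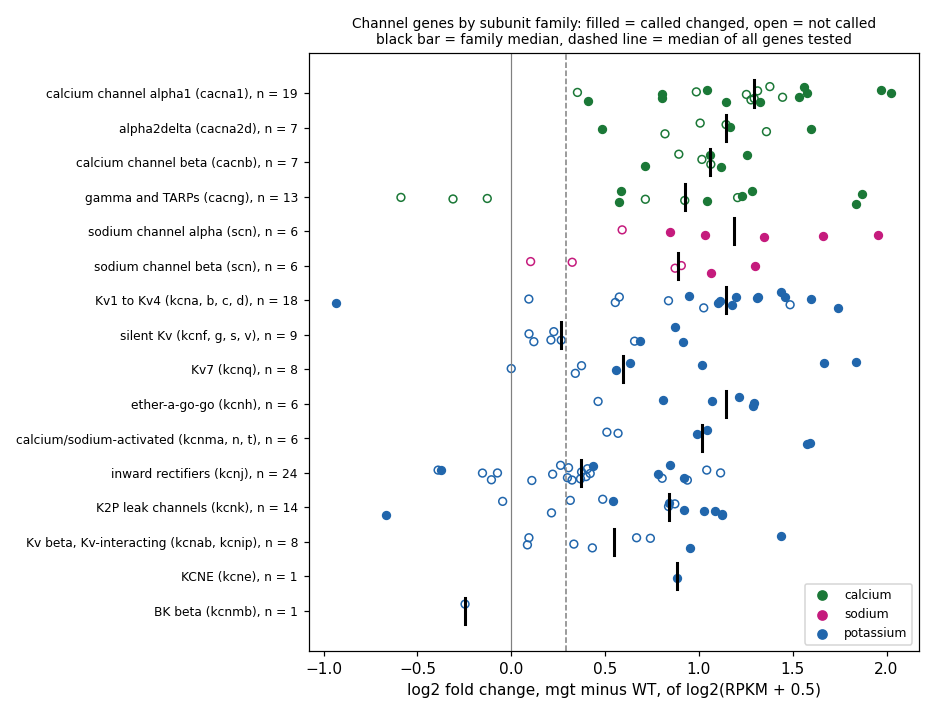
Log2 fold change (mgt minus WT, x axis) of the 153 channel genes, each a point, by subunit family, with the family median as a black bar and the median of all genes tested, 0.29, as a dashed line. Filled points are genes called changed. The alpha1 calcium channels have a median of 1.29 and the inward rectifiers one of 0.37.

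The highest fold change of the whole set was that of a pore-forming alpha1 subunit of calcium channels. Of 19 alpha1 genes 11 (57.9%) were called higher, against 31.8% of all genes and 62.4% of all genes spanning more than 100 kb. In 15 the mgt values all exceeded the WT values, against 41.7% of all genes and 1162 of the 1551 spanning more than 100 kb. With the trend with gene span subtracted 6 of the 19 were called higher. Both genes of the P/Q-type channel, which opens at presynaptic terminals, led the list of alpha1 genes. The gene cacna1aa (ENSDARG00000037905, chromosome 3, 33773156 to 33901483) had 19.0, 19.8 and 19.4 RPKM in mgt and 10.3, 1.81 and 4.22 RPKM in WT. Its means were 19.4 ± 0.366 RPKM in mgt and 5.44 ± 4.36 RPKM in WT (SD, n = 3 each), a log2 fold change of 2.02 with SE 0.51 and an adjusted p of 0.0205 (limma). WT replicate 1 lay between the groups, far above the other WT libraries and below all mgt libraries. Its paralog cacna1ab (ENSDARG00000006923, chromosome 11, 30817943 to 31026335) had 6.48, 6.54 and 6.41 RPKM in mgt and 2.68, 0.61 and 1.1 RPKM in WT. Its log2 fold change was 1.97 with SE 0.36 and an adjusted p of 0.00801 (limma), and it was called higher in each of the 6 fits that left out a library. The call of cacna1aa was kept in only 2 of those 6 fits, with an adjusted p of up to 0.0708 (limma).

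The N-type genes cacna1ba and cacna1bb, whose channels also serve transmitter release, followed with log2 fold changes of 1.53 and 1.58. The gene cacna1c encodes the L-type channel of heart, smooth muscle and neurons, and it had 6.09, 6.21 and 6.20 RPKM in mgt and 3.50, 1.01 and 1.41 RPKM in WT. The R-type genes cacna1ea and cacna1eb had log2 fold changes of 1.32 and 0.80, both called higher. Of the T-type genes, which fire near the resting potential, cacna1g and cacna1ib were called higher (1.04 and 1.15) and cacna1ha was not (0.99, adjusted p 0.0533, limma). The retinal L-type gene cacna1fb had 3.74, 3.47 and 3.58 RPKM in mgt and 3.97, 0.45 and 0.30 RPKM in WT, so that WT replicate 1 exceeded every mgt library and no call was made (log2 fold change 1.45, adjusted p 0.0938, limma). In 3 of the 4 table rows named cacna1db, an L-type gene of sensory hair cells and neurons, WT replicate 1 also lay within or above the range of the mgt libraries. Those 4 rows lie on chromosome 8 between 53204017 and 53465017 and are counted here as separate genes although they share a name.

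The skeletal muscle alpha1 genes followed another pattern. Their channel is the voltage sensor of excitation-contraction coupling. The gene cacna1sb had 18.1, 14.6 and 14.0 RPKM in mgt and 7.04, 10.6 and 8.60 RPKM in WT, with WT replicate 1 the lowest library. Its log2 fold change was 0.80 with SE 0.18 and an adjusted p of 0.0136 (limma), and the value was 0.66 without WT replicate 1. Its paralog cacna1sa had 4.66, 3.83 and 3.55 RPKM in mgt and 2.95, 3.33 and 2.79 RPKM in WT and was not called.

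Among the auxiliary calcium channel genes the same direction prevailed. The most abundant, cacnb4b (ENSDARG00000062174, chromosome 6, 14086688 to 14146979), encodes a cytoplasmic beta subunit of neurons and had 27.7, 27.8 and 28.4 RPKM in mgt and 21.9, 6.87 and 9.75 RPKM in WT. Its means were 28.0 ± 0.357 RPKM in mgt and 12.9 ± 8.01 RPKM in WT (SD, n = 3 each), a difference called higher with SE 0.38 on the log2 scale (adjusted p 0.0354, limma). Of 7 beta subunit genes 4 were called higher, cacnb1, cacnb2a, cacnb3a and cacnb4b. In cacnb2b WT replicate 1, at 6.59 RPKM, lay above the mgt libraries, at 5.04, 5.04 and 4.50 RPKM, while WT replicates 2 and 3 had 1.17 and 0.92 RPKM. Of 7 alpha2delta genes, whose products sit on the outer face of the membrane, 3 were called higher. The strongest was cacna2d3, with 6.51, 7.03 and 7.78 RPKM in mgt and 3.93, 0.94 and 1.98 RPKM in WT. The gene cacna2d2a missed the call (log2 fold change 1.36, adjusted p 0.0561, limma).

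The cacng genes hold both gamma subunits of muscle calcium channels and the TARPs, which carry AMPA-type glutamate receptors to synapses. Of 13 genes 7 were called higher. The TARP gene cacng3b had 8.58, 7.78 and 8.77 RPKM in mgt and 5.33, 1.02 and 1.12 RPKM in WT (log2 fold change 1.87, SE 0.51). Its relative cacng2a had 9.75, 9.66 and 10.0 RPKM in mgt and 5.28, 1.69 and 1.40 RPKM in WT (1.84, SE 0.41). In both, the mgt libraries were close together and the WT libraries were spread. The genes cacng8b and cacng4b were called higher as well (1.28 and 1.23). The muscle gamma subunit cacng1a was called higher (0.58) with WT replicate 1 as its lowest library, at 7.13 RPKM against 11.6 and 10.4 RPKM in the other WT libraries and 15.5, 14.8 and 13.4 RPKM in mgt. The genes cacng1b, cacng6a and cacng6b had negative log2 fold changes of -0.31, -0.13 and -0.59, none of them was called, and that of cacng6a became 0.09 when all libraries were set to the same sum.

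The sodium channel alpha subunits were called higher in 5 of 6 genes (83.3%), against 31.8% of all genes. Their median span was 94.7 kb, and 46.5% of all genes spanning between 37.98 and 100 kb were called higher. With the trend with gene span subtracted 2 of the 6 were called higher. The gene scn1lab (ENSDARG00000062744, chromosome 6, 10248332 to 10320676), a zebrafish counterpart of the human epilepsy gene SCN1A, had 9.85, 10.7 and 10.3 RPKM in mgt and 5.25, 1.07 and 1.88 RPKM in WT. Its log2 fold change was 1.96 with SE 0.44 (adjusted p 0.0151, limma). The most abundant alpha subunit, scn8aa (ENSDARG00000005775, chromosome 23, 27251626 to 27345425), belongs to the type found at the axon initial segment and nodes. It had 23.5, 25.5 and 25.7 RPKM in mgt and 17.8, 3.50 and 6.54 RPKM in WT, a log2 fold change of 1.66 with SE 0.51 (adjusted p 0.0359, limma). WT replicate 1 lay nearer to mgt than to the other WT libraries in this gene. The genes scn8ab and scn1laa were called higher with 1.34 and 1.03. The skeletal muscle gene scn4ab had 7.75, 7.21 and 7.09 RPKM in mgt and 4.90, 3.98 and 2.93 RPKM in WT, and its groups were separate with less spread in WT (0.85, SE 0.18, adjusted p 0.0127, limma). The calls of scn1lab, scn8aa and scn4ab were kept in only 2, 1 and 3 of the 6 fits that left out a library. Their adjusted p rose there to as much as 0.0592, 0.114 and 0.0577 (limma), while scn1laa was called in each of these fits. That gene had a WT mean of 0.42 RPKM and passed the limit of 0.5 RPKM through its mgt mean of 1.37 RPKM. The remaining gene, scn12aa, had WT replicate 1 above every mgt library and was not called.

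The sodium channel beta subunits are single-span proteins that modulate gating and cell adhesion. Of their 6 genes 2 (33.3%) were called higher, a share close to the 31.8% of all genes. The gene scn1bb was the most abundant sodium channel gene, with 25.7, 24.1 and 25.2 RPKM in mgt and 21.9, 7.83 and 9.23 RPKM in WT (log2 fold change 1.06, SE 0.36). The gene scn2b had 11.38, 11.96 and 11.73 RPKM in mgt and 8.83, 2.41 and 3.98 RPKM in WT (1.30, SE 0.39). The genes scn4ba and scn4bb stood at 0.32 and 0.10, and WT replicate 1 lay within or close to the range of the other WT libraries in both. In scn3b, with 18.4, 18.4 and 19.4 RPKM in mgt and 19.7, 5.51 and 9.05 RPKM in WT, the groups overlapped.

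**Figure D2:**
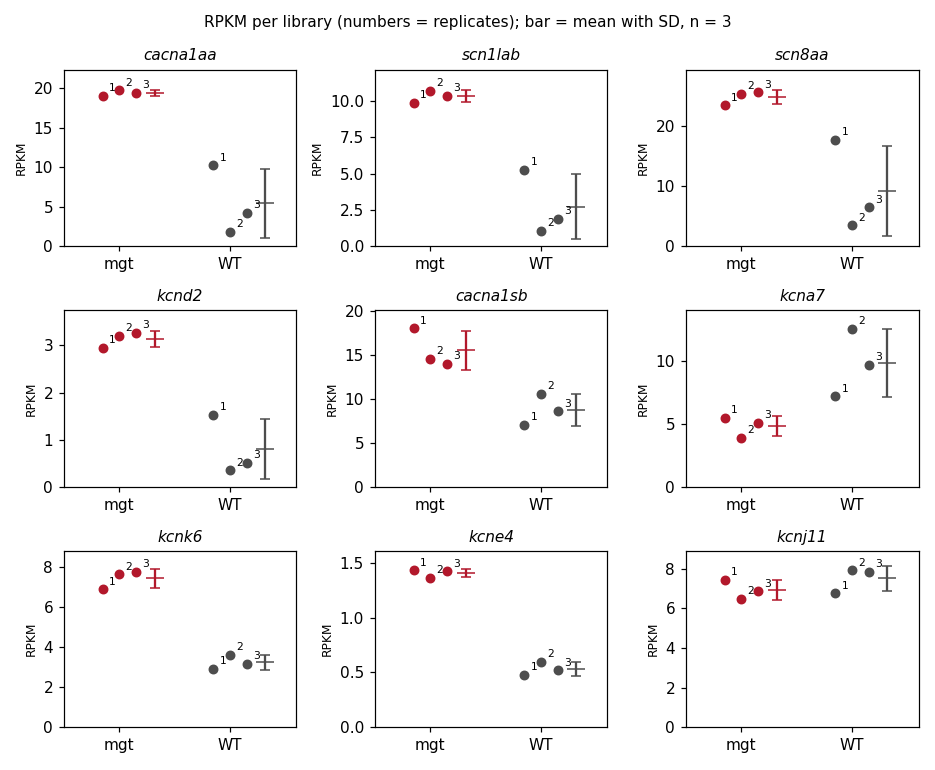
RPKM (y axis, from 0) of 9 channel genes in the 3 mgt libraries (left, red) and the 3 WT libraries (right, grey), with replicate numbers beside the points and the mean with SD (n = 3) beside each group. WT replicate 1 is the highest WT library in cacna1aa, scn1lab, scn8aa and kcnd2, and the lowest in the other genes shown.

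The voltage-gated potassium channels of the Kv1 to Kv4 families were called higher in 11 of 18 genes and lower in 1. The Kv4 genes carry the A-type current of dendrites and heart muscle. The gene kcnd3 (chromosome 8, 28065803 to 28232817) had 5.08, 4.82 and 4.93 RPKM in mgt and 2.67, 0.67 and 0.66 RPKM in WT (log2 fold change 1.74, SE 0.39, adjusted p 0.0147, limma). The gene kcnd2 had 2.95, 3.21 and 3.27 RPKM in mgt and 1.53, 0.35 and 0.51 RPKM in WT (1.6, SE 0.32, adjusted p 0.0102, limma), and its call held in each fit that left out a library. The call of kcnd3 was kept in only 2 of those 6 fits, with an adjusted p of up to 0.0562 (limma). Of the 3 Kv4 genes the remaining one, kcnd1, was not called (0.84). It stood at 0.07 with the trend with gene span subtracted. The kcnc genes encode Kv3 channels, which let neurons fire at high rates. In all 6 of them the mgt values exceeded the WT values without overlap, and 5 were called higher. The most abundant, kcnc3a, had 15.3, 14.6 and 15.1 RPKM in mgt and 9.66, 3.32 and 4.10 RPKM in WT (1.46, SE 0.35). The exception, kcnc1a, had a log2 fold change of 1.49 and an adjusted p of 0.0515 (limma). Among the Kv1 and Kv2 genes, kcna1b, kcna2b and kcna4 were called higher with values between 1.1 and 1.31, and kcna1a, kcna2a, kcna6a and kcnb2 were not.

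The gene kcna7 moved the other way and had the most negative value of the 153 genes. Its mammalian counterpart is expressed in skeletal and heart muscle. The gene (ENSDARG00000086571, chromosome 3, 29980603 to 29983868) had 5.45, 3.89 and 5.09 RPKM in mgt and 7.17, 12.5 and 9.66 RPKM in WT. Its means were 4.81 ± 0.817 RPKM in mgt and 9.78 ± 2.68 RPKM in WT (SD, n = 3 each), and its log2 fold change was -0.93 with SE 0.22 and an adjusted p of 0.0177 (limma). The groups did not overlap, with WT replicate 1 the WT library nearest to mgt. The call was lost in 3 of the 6 fits that left out a library, with an adjusted p of up to 0.0693 (limma).

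The Kv7 and calcium-activated channels damp repeated firing. Of the 8 Kv7 genes 5 were called higher. The gene kcnq3, a subunit of the neuronal M-current, had 4.39, 4.88 and 5.12 RPKM in mgt and 2.42, 0.61 and 0.92 RPKM in WT. Its log2 fold change was 1.67 with SE 0.35 (adjusted p 0.0116, limma), and it missed the call without mgt replicate 3 (adjusted p 0.0505, limma). Both kcnq5 genes were called higher with smaller values (0.56 and 0.63), and the kcnq1 genes, whose channel repolarises heart muscle and serves epithelia, stood at 0.00 and 0.37 and were not called.

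Of the 6 calcium- and sodium-activated potassium channel genes 4 were called higher. The BK channel gene kcnma1a had 9.46, 9.65 and 9.99 RPKM in mgt and 6.13, 1.61 and 2.27 RPKM in WT (log2 fold change 1.59, SE 0.40). The small-conductance genes kcnn1a, kcnn1b and kcnn3 were called with 1.58, 0.99 and 1.04, while kcnn2 and the sodium-activated kcnt1 overlapped between groups. Of the ether-a-go-go genes kcnh1a, kcnh1b, kcnh3, kcnh6a and kcnh7 were called higher with values from 0.81 to 1.30. The gene kcnh7 had 3.89, 3.58 and 3.96 RPKM in mgt and 3.02, 0.58 and 0.92 RPKM in WT, and in all 5 WT replicate 1 was the highest WT library.

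The K2P leak channels were called higher in 7 of 14 genes and lower in 1. The gene kcnk6 (ENSDARG00000007383, chromosome 18, 46171104 to 46183462) was clear of the WT libraries, with 6.89, 7.64 and 7.78 RPKM in mgt and 2.92, 3.63 and 3.18 RPKM in WT. Its means were 7.44 ± 0.479 RPKM in mgt and 3.24 ± 0.359 RPKM in WT (SD, n = 3 each), and its log2 fold change was 1.09 with SE 0.13 and an adjusted p of 0.00176 (limma). No WT library came near mgt. The mechanically gated kcnk10a and kcnk10b were called higher (1.13 and 1.12), as were kcnk1b, kcnk3b, kcnk5b and kcnk9, with values from 0.54 to 1.03. Of these, kcnk9 had a WT mean of 0.45 RPKM and passed the limit of 0.5 RPKM through its mgt mean of 1.15 RPKM. The gene kcnk3b also had a WT mean below the limit and passed through mgt. Of the 14 tested K2P genes 11 had a WT mean of at least 0.5 RPKM. The pH-sensitive leak channel gene kcnk5a (ENSDARG00000023587, chromosome 17, 48683769 to 48705993) had 1.46, 1.28 and 1.28 RPKM in mgt and 2.16, 2.83 and 2.30 RPKM in WT, a log2 fold change of -0.67 with SE 0.14 (adjusted p 0.0112, limma). Its groups did not overlap. The call was kept in only 4 of the 6 fits that left out a library, with an adjusted p of up to 0.0587 (limma).

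Of the inward rectifiers 13 of 24 genes overlapped between the groups, against 7489 of the 20435 genes tested. The share called higher was 16.7%, below the 31.8% of all genes. The median log2 fold change was 0.37, against 0.29 over all genes. The genes called higher were kcnj16, kcnj5, kcnj8 and kcnj1a.1. The gene kcnj16, whose product pairs with other inward rectifiers in epithelia and glia, had 1.68, 2.33 and 2.61 RPKM in mgt and 0.89, 0.86 and 0.99 RPKM in WT (log2 fold change 0.92, SE 0.16). The subunits of the ATP-sensitive channel differed, with kcnj8 of vessels called higher (0.78) and kcnj11 of muscle and the pancreas at 7.46, 6.49 and 6.87 RPKM in mgt and 6.76, 7.93 and 7.85 RPKM in WT (-0.11, adjusted p 0.466, limma, and 0.11 when all libraries were set to the same sum). The 2 table rows named kcnj11l on chromosome 25 overlap in position, so reads may have been divided between them, and neither was called. The 6 kcnj1a genes lie on chromosome 18 and encode channels of the ROMK type, which moves potassium across epithelia. One of them, kcnj1a.2, was called lower, with 2.15, 1.75 and 2.11 RPKM in mgt and 2.85, 2.75 and 2.63 RPKM in WT (-0.38, SE 0.13, adjusted p 0.0467, limma), and that call was lost in 5 of the 6 fits with a library left out. The gene kcnj1a.1 was called higher (0.43). The markers of ionocytes, the skin cells that exchange salt, summed to between 147 and 154 RPKM in mgt and to 203, 160 and 150 RPKM in WT, over 7 genes all detected. That sum is mostly atp6v1aa and ca2, which were not called. Of the 7, 4 (57.1%) were called lower without overlap, trpv6 (-1.53), clcn2c (-1.14), foxi3a (-0.93) and foxi3b (-0.92). Among all genes 15.6% were called lower and 21.6% lay below WT without overlap. The other 3 markers had positive values of at most 0.28 and were not called. The part of the ionocyte markers in the kcnj1a values was not tested.

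Of the potassium channel auxiliary genes 3 of 10 were called higher, a share slightly below the 31.8% of all genes. The gene kcne4 (ENSDARG00000068257, chromosome 15, 43093044 to 43100399), a small membrane subunit that restrains Kv1 and Kv7 channels in mammals, had 1.43, 1.36 and 1.42 RPKM in mgt and 0.48, 0.60 and 0.52 RPKM in WT. Its log2 fold change was 0.88 with SE 0.11 and an adjusted p of 0.00201 (limma). The WT libraries were close together here. The beta subunits kcnab2a and kcnab1a, which bind Kv1 channels, were called with 1.44 and 0.95. The Kv-interacting proteins, calcium sensors of the Kv4 channels, include kcnip1b and kcnip3a, which with kcnc3a were the 3 most abundant potassium channel genes. The gene kcnip1b had 13.2, 13.5 and 14.3 RPKM in mgt and 17.3, 7.05 and 10.0 RPKM in WT, and kcnip3a had 10.73, 11.25 and 12.05 RPKM in mgt and 16.1, 5.14 and 6.68 RPKM in WT. In both, WT replicate 1 lay above every mgt library and the other WT libraries lay below. Of the silent subunits, which form channels only with other Kv subunits, kcnf1a, kcns3a and kcng1 were called higher (0.92, 0.87 and 0.68) and 6 of 9 were not. The share called higher, 33.3%, was also close to that of all genes. The BK beta subunit kcnmb2 had all mgt values below all WT values (-0.25) without a call.

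The position of WT replicate 1 divided the channel genes. In 130 of the 153 genes (85.0%) it lay above both other WT libraries, against 63.7% of all genes. Its median distance from their mean was 1.01 log2 units, against 0.28 over all genes. In 124 genes (81.0%) it lay nearer to the mgt mean than to the mean of WT replicates 2 and 3, against 55.6% of all genes. The mgt mean lay a median of 0.24 above WT replicate 1, against 0.04 over all genes. All mgt libraries lay above WT replicate 1 in 96 genes and below it in 38, against 9483 and 8174 of the 20435 genes tested. Of the 74 genes called higher 62 (83.8%) also lay at least 0.32 log2 units above WT replicate 1 alone, against 77.6% of the genes called higher over the whole table. Without WT replicate 1, 84.3% of the channel genes and 52.0% of all genes were called higher, and all 74 calls of higher and all 3 calls of lower were among them. The sums of neuron and photoreceptor markers given above moved in the same direction in WT replicate 1, and their part in the channel values was not tested.

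A smaller set of genes was higher in mgt while WT replicate 1 lay close to or below the other WT libraries. It included kcnk6, kcnf1a, kcne4, kcnj16, kcnj1a.1, kcnk5b, cacna1sb and cacng1a, and was picked after its values had been seen. With median-of-ratios factors kcnk6, kcnf1a, kcne4 and kcnj16 kept their calls. The genes kcnj1a.1, kcnk5b, cacna1sb and cacng1a lost theirs, at 0.21, 0.29, 0.50 and 0.28. The call of kcnj1a.1 was kept in only 1 of the 6 fits that left out a library, and those of kcnk5b and cacng1a in 2. Channel genes of skeletal muscle, also chosen after the values had been seen, shared the position of WT replicate 1 in part. Of 13 such genes 5 (38.5%) were called higher and 1 (7.7%) lower, with a median log2 fold change of 0.30. Over all genes the shares were 31.8% and 15.6%, and the median was 0.29. The median for WT replicate 1 relative to the other WT libraries was -0.21. In 3 of the 13, among them cacnb1 and scn4ab, which were called higher, WT replicate 1 lay above both other WT libraries. The markers of skeletal muscle summed to 25041, 24328 and 23600 RPKM in mgt and to 21428, 31738 and 36275 RPKM in WT, with 1 of 13 table rows called lower. Of 7 table rows for channel genes of the retina, likewise chosen after the values had been seen, 1 (14.3%) was called higher, a share below that of all genes. In those 7 rows WT replicate 1 lay a median of 1.73 above the other WT libraries, with a median of -0.13 for mgt relative to WT replicate 1. The muscle and retina sets are therefore not independent of the pattern they show. Called higher in every one of the fits that tested them were 12 of 153 channel genes, or 7.84%, and 7.82% of all genes. The share was close to that of all genes. They included cacna1ab, kcnab2a, kcnd2, kcne4, kcnf1a, kcnh1b, kcnj16, kcnk3b, kcnk6, kcnn1b and kcns3a, and 11 of the 12 were potassium channel genes. As given above, kcnk3b and kcnh1b passed the limit of 0.5 RPKM through mgt.

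**Figure D3:**
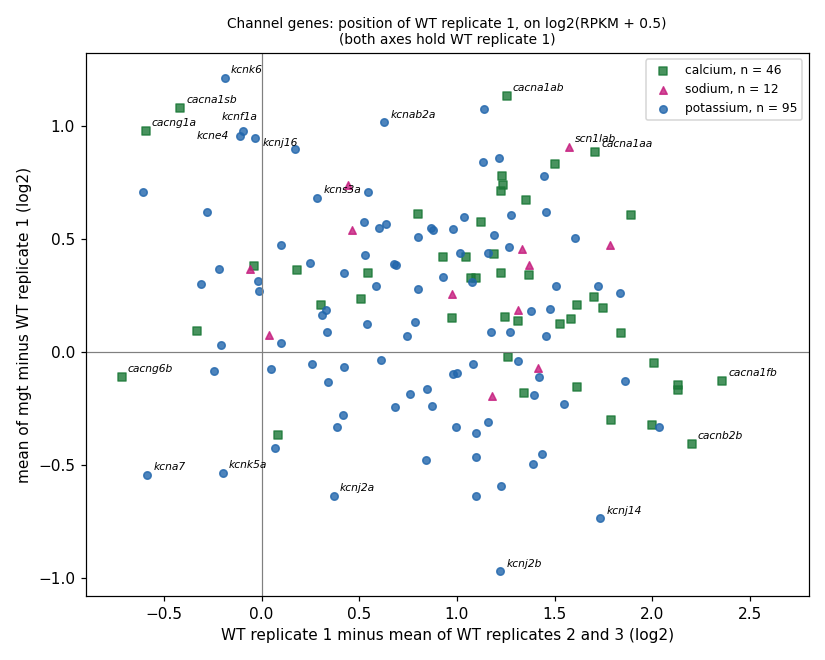
Mean of mgt minus WT replicate 1 (y axis) against WT replicate 1 minus the mean of WT replicates 2 and 3 (x axis), in log2 units, for 46 calcium (squares), 12 sodium (triangles) and 95 potassium (circles) channel genes. Most points lie right of 0, and kcnk6, cacna1sb and cacng1a lie at the upper left. Both axes hold WT replicate 1, so the slope between them is not read.

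Channel genes are long, and long genes were higher in mgt throughout the table. The median span from start to end was 40.8 kb over the 153 genes and 16.4 kb over all genes tested. Among genes spanning more than 100 kb, 22 of 29 channel genes (75.9%) and 62.4% of all genes were called higher, with median log2 fold changes of 1.30 and 0.88. Between 37.98 and 100 kb the shares were 30 of 51 channel genes (58.8%) and 46.5% of all genes, with medians of 1.02 and 0.59. At or below 7.30 kb they were 9 of 29 channel genes (31.0%) and 21.5% of all genes, with medians of 0.55 and 0.04. Between 7.30 and 16.4 kb they were 5 of 18 channel genes (27.8%) and 22.4% of all genes. Between 16.4 and 37.98 kb the share of the channel genes, 8 of 26 (30.8%), lay below the 31.8% of all genes. The median of the channel genes lay above that of all genes of like span in each of the 5 bins. Across the 153 genes the Spearman correlation of span with log2 fold change was 0.46, and across all genes it was 0.32. Genes share libraries and are not independent replicates, so no p-value is given.

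When the trend of each library with gene span was subtracted, 43 channel genes were called higher and 10 lower, with a median log2 fold change of 0.40. In that fit 20.4% of all genes were called higher and 23.5% lower, with a median of 0.01. The genes kcnd3, kcnq3, scn1lab, cacna1aa, cacna1ab, kcna7 and kcnk5a kept their calls, with 1.24 for cacna1aa and -0.94 for kcnk5a. The genes scn8aa (0.96, adjusted p 0.0649), cacnb4b (0.68, adjusted p 0.0651) and cacna1sb (0.34, adjusted p 0.31) did not keep theirs (limma). Nor did scn1laa (0.33, adjusted p 0.0789) or scn4ab (0.21, adjusted p 0.182, limma). Of the genes named here as called higher, 5 had negative values in that fit. These were cacna1g, which spans 370 kb (-0.033), the paralogs kcnq5a and kcnq5b (-0.40 and -0.30), cacna2d1a (-0.27) and 1 row of cacna1db (-0.15).

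**Figure D4:**
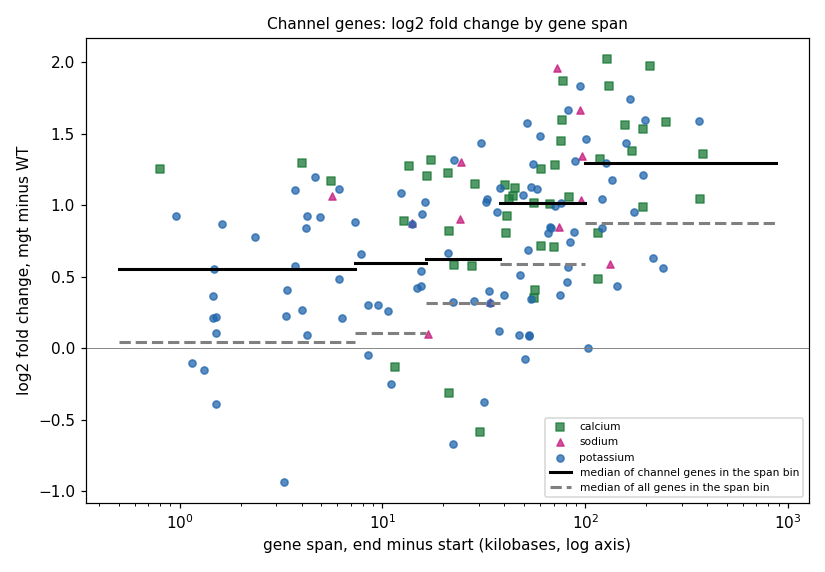
Log2 fold change (mgt minus WT, y axis) of the 153 channel genes against gene span (kilobases, log x axis). Black lines give the median of the channel genes and dashed grey lines that of all genes tested in each of 5 span bins, from 0.55 and 0.04 in the shortest genes to 1.30 and 0.88 in the longest.

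Paralogs named a and b are measured in the same libraries, so the scale of a library divides out of the ratio of their RPKM. A limma fit on the log2 ratio of RPKM + 0.5, which the scale still touches and which gives smaller changes in low genes than the RPKM ratios printed here, was added after the values had been seen, over all 2486 a/b pairs of the table in which both genes were tested. Of the 38 channel pairs 11 were called changed (28.9%), 3 toward the a gene and 8 toward the b gene, against 40.7% of all pairs. In 14 channel pairs (36.8%) the 3 mgt ratios did not overlap the 3 WT ratios, against 57.8% of all pairs. Both shares of channel pairs lay below those of all pairs. Leaving out 1 library gave between 4 and 20 called pairs, with 20 without WT replicate 1, and 4 pairs were called in each of those fits.

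Those 4 pairs included kcnab2a with kcnab2b, kcnk5a with kcnk5b and kcna2a with kcna2b. The ratio of kcnab2a to kcnab2b was 1.1, 1.15 and 1.54 in mgt and 0.338, 0.331 and 0.592 in WT, a log2 change of 1.34 with SE 0.22 (adjusted p 0.00545, limma). In this pair kcnab2a was the lower paralog in each WT library and the higher one in each mgt library. The ratio of kcnk5a to kcnk5b was 0.525, 0.574 and 0.533 in mgt and 1.33, 1.79 and 1.64 in WT (log2 change -1.21, SE 0.12, adjusted p 0.000981, limma), where kcnk5a was called lower and kcnk5b higher. The ratio of kcna2a to kcna2b was 0.235, 0.327 and 0.309 in mgt and 0.475, 0.522 and 0.421 in WT (-0.76, SE 0.14, adjusted p 0.00798, limma). The muscle pair cacna1sa and cacna1sb changed by -0.45 and cacng1a and cacng1b by 0.89, each called with all libraries. The pairs that moved together included cacna1aa with cacna1ab, whose log2 ratio changed by 0.05 with SE 0.18, and kcnk10a with kcnk10b, at 0.00 with SE 0.10.

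**Figure D5:**
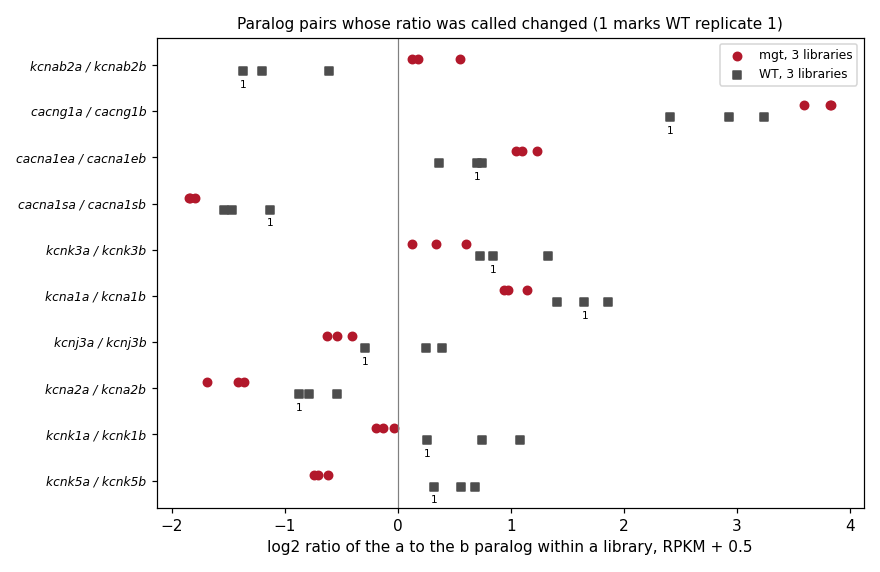
Log2 ratio of the a to the b paralog within each library (x axis) for 10 channel pairs called changed, with 3 mgt libraries (red circles, upper row of each pair) and 3 WT libraries (grey squares, lower row). A 1 marks WT replicate 1. In kcnk5a and kcnk5b the mgt and WT ratios are separated by more than the range within either group.

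Other genes of excitable membranes were counted from lists written with earlier results known. Among all genes tested, as given above, the shares called higher and lower were 31.8% and 15.6%. Of 41 tested genes for proteins that anchor or accompany these channels 26 (63.4%) were called higher and 1 (2.4%) lower, with a median of 1.07. They include the ankyrin gene ank2b (31.2, 30.4 and 33.0 RPKM in mgt and 22.5, 4.89 and 7.98 RPKM in WT) and the axonal adhesion genes cntnap2b and cntn2, which cluster potassium channels beside nodes (1.90 and 1.88). The muscle calcium release channel genes ryr1b, ryr3 and ryr1a were called higher with 0.78, 1.00 and 0.48, and WT replicate 1 was the lowest WT library in ryr1b and ryr3, as it was for cacna1sb. Of 32 related channels 14 (43.8%) were called higher and 1 (3.1%) lower. The pacemaker channel gene hcn2b was higher (1.55), and the chloride channel gene clcn2c, which was also on the ionocyte list, was lower, with 3.9, 5.0 and 4.06 RPKM in mgt and 10.6, 10.1 and 9.54 RPKM in WT. Of 16 sodium-potassium pump genes 4 were called higher and 2 lower. The neuronal pump gene atp1a3a had 90.5, 83.9 and 91.0 RPKM in mgt and 66.9, 12.1 and 11.8 RPKM in WT, whereas atp1a1a.4 and atp1a1a.2 were lower with -0.89 and -0.64.

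The mean of 0.5 RPKM left out 24 channel genes, which were not tested. In 12 of them the mgt values lay above the WT values without overlap, in kcnj12a they lay below, and cacng2b was listed at 0 throughout. Among all genes that passed the limit, 41.7% lay above and 21.6% below without overlap. No share was taken over all genes under the limit, so the count of 12 is not read as a result. Just inside the limit were kcnq1.2, kcnq1.1 and kcnj14 with means of 0.53, 0.60 and 0.61 RPKM, and just outside it were scn5lab, cacna1hb and kcnv2b with 0.495, 0.49 and 0.49 RPKM. A gene can pass through its mgt libraries alone, and 13 genes did so with a WT mean below 0.5 RPKM. Of the 140 with a WT mean of at least 0.5 RPKM, 64 were among the 74 called higher. The 153 table rows carry 148 distinct symbols, since cacna1db, cacna2d4a and kcnj11l stand on 8 rows.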

How the data were processed

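Total RNA of 3 mgt and 3 WT pools was sequenced, and the samples were grouped by genotype as GEO's labels give it. According to the processing notes and the methods, the authors used FastQC for read quality, cutadapt 5.2 for adaptors, STAR for alignment (GRCz11) and HTSeq for reads per gene. The deposited values are RPKM, rounded to 2 decimals, and the gene length behind them is not given in the sources used here. Counts were not used here, so the count model named in the methods was replaced by limma. The deposited table also holds the authors' mean and SD per genotype and a ratio of the means. In all 32520 genes their WT mean averages WT replicates 2 and 3 only. It was used for this check only.

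Values were taken as log2(RPKM + 0.5), and a fold change on this scale understates that of low genes. The 20435 genes with a mean of at least 0.5 RPKM were fitted with lmFit and a trended eBayes of limma 3.58.1 (R 4.3.3), and p-values were adjusted over all of them by Benjamini-Hochberg. A call needed an adjusted p below 0.05 and an absolute log2 fold change of at least 0.32. The code was tested on simulated data. All 37 mitochondrial genes are listed at 0. Each pool is a sample of its group in the labels, where the pools are called biological replicates, while the study's text speaks of both technical and biological replicates. Whether they came from separate clutches is not stated for these libraries, so p-values measure the spread between these samples. Replicate numbers did not pair the samples. Library totals between 38350000 and 50270000 reads make genes near the limit of 0.5 RPKM the least precise. With 3 against 3 libraries an exact permutation test cannot go below p = 0.1, so single genes rest on the limma fit.

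The genes named were, in each ion class, the 5 called genes at each end with a mean of at least 1 RPKM and no overlap, textbook members, the genes nearest the limit of 0.5 RPKM and the 3 most abundant. A few genes that this rule names are not reported here. Further genes were named after their values had been seen. The members, families and lists were chosen with earlier results of these data known. Alternatives covered the pseudocount, the filter, the scale, the trend with gene span, the variance model, the fold threshold, the replicate block and leaving out each library.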

Additional observations from a re-analysis of the deposited data

How the results depend on the processing

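The positive median of the channel genes kept its direction in all alternatives. Counts of calls moved most. Of 74 channel genes called higher and 3 lower, 26 and 1 were called when all 32520 genes were tested, 43 and 10 with the trend with gene span subtracted (median 0.40), and 28 and 0 under the stricter fold threshold. The number called lower was 6 with median-of-ratios factors and 8 with quantile normalization. Leaving out 1 library gave between 16 and 129 called higher and between 0 and 5 called lower, and between 4074 and 14350 calls over all genes, where the main fit had 9688 and the stricter fold threshold 2174. The lowest count of higher calls came without mgt replicate 1 or 3 and the highest without WT replicate 1. Channel genes called higher made up 60 to 93 under the other alternatives. Same-numbered mgt and WT libraries deviated together with correlations of -0.03, 0.03 and 0.03, so the numbers do not pair them. With a replicate block 69 genes were called higher, 67 of them shared with the 74, and 2 lower.

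Some single genes changed sign. With median-of-ratios factors these were kcnip3b (-0.12), kcnv2a (-0.0031), kcnk1a (-0.035), kcnab2b (-0.18), kcna6a (-0.14) and scn4bb (-0.12). With quantile normalization they were cacna1sa (-0.044), kcnip3b (-0.23), kcnj10a (-0.024), kcnj11l (-0.049), kcng4b (-0.028), kcnv2a (-0.14), kcnk1a (-0.16), kcnk3a (-0.033), scn4ba (-0.053), kcnab2b (-0.32), kcnj12b (-0.027), kcna6a (-0.26) and scn4bb (-0.24). With libraries set to the same sum they were cacng6a (0.088), kcnq1.1 (0.12), kcnj11 (0.11) and kcnj13 (0.11), and with a pseudocount of 0.1 kcnq1.1 (0.015). With the trend with gene span subtracted they were kcnip1b (-0.012), kcnip3a (-0.38), cacna2d1a (-0.27), 1 row of cacna1db (-0.15), cacna1g (-0.033), cacna1sa (-0.20), kcnip3b (-0.45, called lower), kcnq5a (-0.40), kcnq5b (-0.30), kcnn2 (-0.094), kcnj10a (-0.080), kcnj3a (-0.0022), kcnk3a (-0.093), scn4ba (-0.082), kcnq1.2 (-0.26), kcnab2b (-0.41), scn12aa (-0.20) and scn4bb (-0.093). Over the fits that left out 1 library kcna6a ranged from -0.01 to 0.22, kcnab2b from -0.10 to 0.46, kcnip3b from -0.088 to 0.37, kcnj13 from -0.17 to 0.055, kcnj2b from -0.37 to 0.25, kcnq1.1 from -0.14 to 0.14 and kcnv2a from -0.063 to 0.63. Of the genes named, 5 that had been called higher changed sign in some alternative, cacna2d1a, cacna1db, cacna1g, kcnq5a and kcnq5b, each when the trend with gene span was subtracted. The cause of these changes was not tested.

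Depth limits the genes near 0.5 RPKM. Batch and genotype cannot be told apart, and whole larvae do not separate the number of cells from the RNA in each.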
